A study of Mus musculus with 4 samples.

Results

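The Myc, Max and Mxd network is a family of transcription factors that compete for the partner Max, and 9 of its genes were examined here: Myc, Mycn, Max, Mxd1, Mxd3, Mxd4, Mxi1, Mnt and Mga. The members were taken by name, as the array rows that GEO's platform annotation pairs with exactly 1 of these symbols, and each of the 9 had 1 row, out of 19938 genes measured. RNA came from primary lung fibroblasts grown out of collagenase-digested lungs of mice aged 3 to 4 weeks, without treatment. The mutant group (samples A and B) was a line carrying a mutant allele of 1 gene, and the WT group (samples A and B) was a wild-type line. As the titles name a single line for each genotype, effects of genotype and of line cannot be told apart. The labels do not say that A and B were separate cultures. P-values therefore measure the spread between A and B, which may be technical.

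As background, the proteins of this network bind DNA through a basic helix-loop-helix leucine zipper after pairing with Max. MYC and MYCN with MAX activate genes of growth, ribosome production and metabolism, whereas MXD1, MXI1, MXD3, MXD4 and MNT with MAX recruit SIN3 and histone deacetylases to the same E-box, the DNA word CACGTG. MGA carries a T-box as well and belongs to a Polycomb complex, PRC1.6, that keeps germline genes silent. MYC is also regulated through the breakdown of its protein, a step that RNA arrays do not measure.

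Transcripts of 4 network repressors, Mxd1, Mxi1, Mnt and Mga, rose in mutant fibroblasts by 0.38 to 0.64 on the log2 scale. After quantile normalization, explained below, these rises were 0.27 to 0.41. The transcript of the repressor Mxd4 fell by 0.46, or by 0.54 after that step. Myc, Mycn, Max and Mxd3 gave no call by the rule below, though Mycn and Mxd3 were called lower after quantile normalization. Values are the deposited log2 expression values, and a difference is the mutant mean minus the WT mean. The words rose and fell are kept for genes whose limma adjusted p was below 0.05 with 1 sign both before and after quantile normalization, a step that gives the 4 columns 1 distribution. By that rule 22.4% of all genes rose and 11.5% fell, and among genes above the dim level, the brightness under which 95% of olfactory and vomeronasal receptor rows lay (5.15), 24.5% rose and 15.1% fell. The members' shares were 44.4% (4 of 9) and 11.1% (1 of 9). With so few members the share that rose is a description only. In size, the deposited differences of the 5 called members exceeded those of 54.3% (Mga) to 80.9% (Mxd1) of all genes. All 9 lay above the dim level in every sample.

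**Figure D1:**
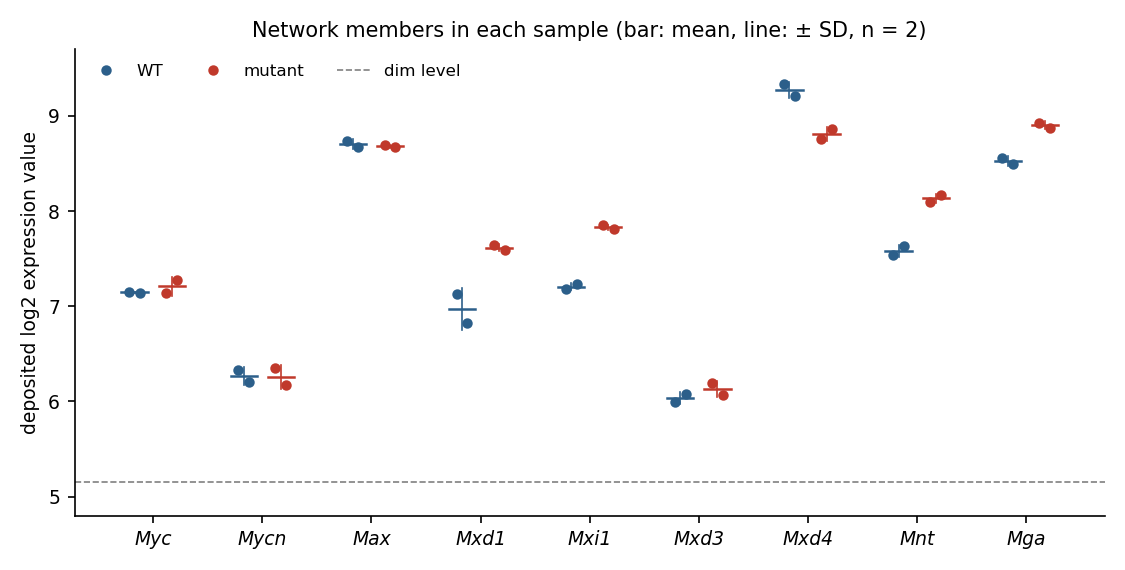
Deposited log2 expression value (vertical axis) of the 9 network members in the WT (blue) and mutant (red) samples, with points for samples A and B, a bar for the mean and a line for ± SD (n = 2 per group). The groups stand apart for Mxd1, Mxi1, Mxd4, Mnt and Mga and overlap for Myc, Mycn, Max and Mxd3; the dashed line is the dim level of 5.15, and heights of different genes are not comparable.

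The sequences below show the E-box CACGTG in the promoters of Mnt and Mxd4, its variant CACGCG (read as CGCGTG) in that of Mga, and a pair of the E-box-like word CACGAG in that of Txnip, a target gene of the neighbouring MLX branch. Promoters are RefSeq's, assembly GRCm38.p6, 250 bases before to 50 after the start, and 8 of the 9 members matched. CACGTG reads the same on both strands, and the variant CACGCG was searched on both strands, as CACGCG or CGCGTG, whose matches may overlap each other. CACGTG stood in promoters of 3 of the 8 members, Mnt, Mxd4 and Max, against 7.15% of all 32851 promoters in the table and 9.52% of the 15563 measured genes with an entry. The Max match begins 3 bases before the start and runs across it, and is not printed. CACGCG stood in 1 member promoter, that of Mga, against 9.27% of all promoters and 14.9% of the measured genes with an entry. The windows end at the start site at the latest, and capitals mark the letters named above for each gene. The Txnip window also holds the variant as CGCGTG, 52 bases before the start, left in lower case, and a further CACGCG lies 160 bases before the start, outside the window.
Mnt, chr11:74830774-74830833, plus strand: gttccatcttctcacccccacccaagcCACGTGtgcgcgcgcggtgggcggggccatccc
Mxd4, chr5:34187897-34187956, minus strand: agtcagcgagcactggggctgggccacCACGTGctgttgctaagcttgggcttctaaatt
Mga, chr2:119897180-119897227, plus strand: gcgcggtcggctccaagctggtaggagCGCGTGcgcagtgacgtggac
Txnip, chr3:96557845-96557915, plus strand: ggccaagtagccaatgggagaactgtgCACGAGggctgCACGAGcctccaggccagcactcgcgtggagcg

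Mnt, which rose, and Mxd4, which fell, both hold CACGTG, 123 and 219 bases before the start. Neither word was found in the windows of Mycn, Mxd1, Mxd3 or the 3 alternative starts of Mxi1. A match is a description of letters and shows no binding, and no match says only that these letters are absent from these windows.

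The activators gave no call that held on both scalings. Myc, the broadly expressed growth regulator, read 7.14 and 7.28 in the mutant samples A and B and 7.15 and 7.14 in the WT samples. The mutant samples bracket the WT values, so the groups overlap. The difference was 0.07 ± 0.08 (SE, here and below limma's moderated SE with n = 2 per group), with a 95% interval of -0.13 to 0.26 and limma adjusted p = 0.491. Its sign turned on the other scalings: -0.18 after quantile normalization (interval -0.38 to 0.01, limma adjusted p = 0.103), -0.20 after cyclic loess and -0.28 after median centring, where it was called lower (limma adjusted p = 0.025). A change of Myc RNA by 1 log2 unit or more lies outside both intervals. These rest on the spread between A and B and cover no variation between lines.

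Mycn, the developmental relative of Myc, read 6.35 and 6.17 in mutant and 6.33 and 6.20 in WT. Sample A was the higher one in each group, and the group ranges cover each other almost wholly. The deposited difference was -0.005 ± 0.09 (limma adjusted p = 0.965, interval -0.24 to 0.23). After quantile normalization it was -0.35 ± 0.10 and called lower (limma adjusted p = 0.0302), with -0.35 also after cyclic loess and median centring. Mycn is thus called lower on every scaling tried other than the deposited one. The third gene of this kind, Mycl, no member of the set, read 6.12 and 6.33 in mutant and 5.72 and 5.78 in WT, a difference of 0.48 ± 0.09 (limma adjusted p = 0.00809) that came to 0.13 and was not called after quantile normalization (adjusted p = 0.276).

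Max, the shared partner of the activators and repressors, differed least on the deposited values after Mycn. It read 8.69 and 8.67 in mutant and 8.74 and 8.67 in WT. WT B equals mutant B, and the groups overlap. The difference was -0.03 ± 0.07 (limma adjusted p = 0.764, interval -0.20 to 0.15), and -0.13 after quantile normalization (adjusted p = 0.184). Median centring, which shifts each column by 1 amount, put Max at -0.37 and called it lower (limma adjusted p = 0.00769).

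Mxd1 and Mxi1, repressors that in many tissues accompany the exit from cell division into differentiation, rose together. Mxd1 read 7.64 and 7.59 in mutant and 7.13 and 6.82 in WT. Both mutant samples lie above both WT samples, with a gap of 0.46 between the nearest of them, although the WT samples themselves lie 0.31 apart. Its difference was 0.64 ± 0.12, a 1.56-fold rise (limma adjusted p = 0.00627), and 0.40 ± 0.11 after quantile normalization (adjusted p = 0.0249). Without WT B, the lower WT sample, the difference was 0.48 and was not called on both scalings. Mxi1 read 7.85 and 7.81 in mutant and 7.18 and 7.23 in WT. A and B differed by at most 0.05 in each group and the gap between groups was 0.58, the widest among the 9 members. The Mxi1 difference was 0.63 ± 0.07, or 1.54-fold (limma adjusted p = 0.00149), and 0.41 ± 0.07 after quantile normalization (adjusted p = 0.00482), and it was also called after median centring (0.28, adjusted p = 0.0198), the only one of the 4 rises of which this holds. The Mxi1 row is annotated to several transcripts, so the products of its alternative starts are not told apart.

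Mxd4 went the other way. This repressor, like Mxd1 tied to differentiating cells, read 8.76 and 8.86 in mutant and 9.33 and 9.21 in WT. Both mutant samples lie below both WT samples, by at least 0.35. The difference was -0.46 ± 0.08, 1.38-fold lower in mutant (limma adjusted p = 0.00564), and it was -0.54 after quantile normalization (adjusted p = 0.00337), -0.54 after cyclic loess and -0.80 after median centring, called each time. Mxd3, the family member linked to dividing cells rather than to differentiation, read 6.19 and 6.07 in mutant and 5.99 and 6.08 in WT. Mutant B lies inside the WT range. Its difference turned from 0.10 ± 0.08 on the deposited values (limma adjusted p = 0.332) to -0.26 after quantile normalization (limma adjusted p = 0.0487). It was -0.27 after cyclic loess (limma adjusted p = 0.0422) and -0.25 after median centring (limma adjusted p = 0.0457). Mxd3, like Mycn, was thus called lower on every scaling tried other than the deposited one.

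Mnt, the most widely expressed of the MAX-bound repressors and a direct rival of MYC, read 8.10 and 8.17 in mutant and 7.54 and 7.63 in WT. The groups are 0.47 apart at their nearest samples. It rose by 0.55 ± 0.07, or 1.46-fold (limma adjusted p = 0.00254), and by 0.37 ± 0.08 after quantile normalization (adjusted p = 0.01). Mga, the T-box and PRC1.6 protein, read 8.93 and 8.87 in mutant and 8.56 and 8.49 in WT. Its groups are also separate, by 0.31, the narrowest gap of the 5 called members. Mga rose by 0.38 ± 0.07, or 1.30-fold (limma adjusted p = 0.0071), and by 0.27 after quantile normalization (adjusted p = 0.0234), while median centring left 0.03 and no call (adjusted p = 0.765).

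**Figure D2:**
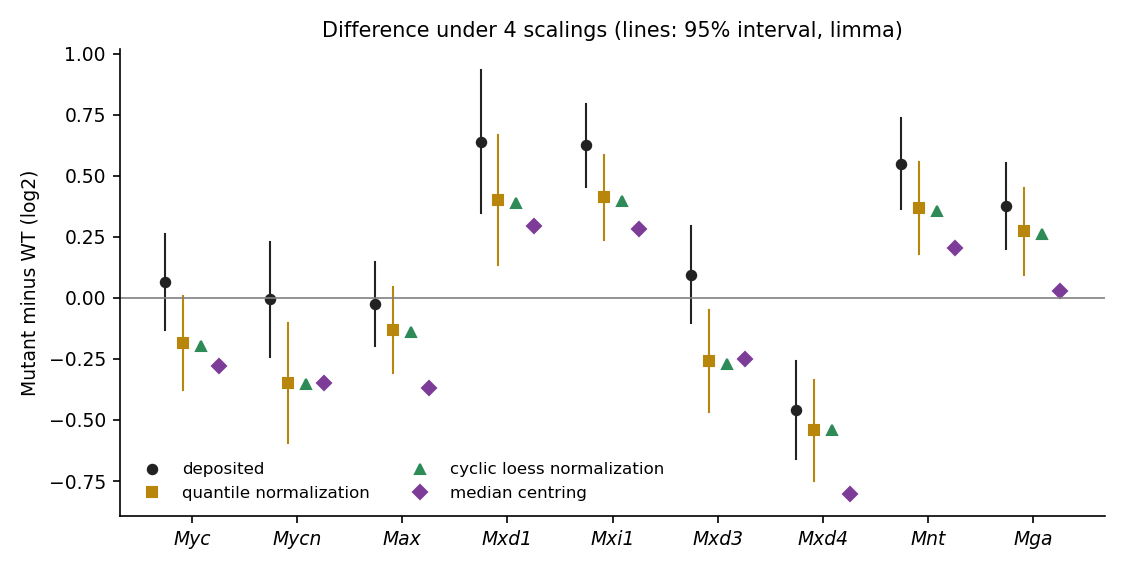
Mutant minus WT in log2 units (vertical axis) for each member on the deposited values (circles) and after quantile normalization (squares), both with 95% intervals from limma, and after cyclic loess (triangles) and median centring (diamonds). Mxd1, Mxi1, Mnt and Mga lie above 0 and Mxd4 below 0 on all 4 scalings, with Mga at 0.03 after median centring, whereas Myc and Mxd3 change sign.

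The scaling matters because the deposited columns lie apart, the mutant medians being 6.24 and 6.26 and the WT medians 5.90 and 5.91. Over all genes the median difference was 0.26 before and -0.0037 after quantile normalization. It varied with the level of the gene. Among the 500 genes nearest to each member in mean level, the median deposited difference was 0.36 for Mycn and 0.34 for Mxd3, 0.22 for Myc and 0.10 for Mxd4. It was 0.25 for Mxd1, 0.23 for Mxi1, 0.17 for Mnt, 0.115 for Mga and 0.125 for Max. Less that shift, the rises of Mxd1, Mxi1, Mnt and Mga came to 0.39, 0.395, 0.38 and 0.26. On the deposited values 4 members were called higher and 1 lower, against 50.1% and 11.9% of all genes. After quantile normalization 4 were called higher and 3 lower, against 22.5% and 24.4% of all genes, the added calls being Mycn and Mxd3. The sample values of 5 members did not overlap between groups, and those of 83% of all genes did not either. Leaving out any 1 of the 4 arrays ended the calls of Mxd1, Mxd4, Mnt and Mga, and that of Mxi1 held only without mutant B.

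Differences between rows of the same array do not depend on any shift shared by a whole column, so each member was also set against Myc within each sample. For Mxi1 minus Myc the mutant samples gave 0.71 and 0.53 and the WT samples 0.03 and 0.09. This is a change of 0.56 in favour of Mxi1, or 0.60 after quantile normalization. The corresponding changes were 0.58 for Mxd1, 0.48 for Mnt and 0.31 for Mga, and 0.58, 0.55 and 0.46 after quantile normalization. In all 4 genes both mutant samples lay above both WT samples. Mxd4 moved by -0.53 against Myc, or -0.36 after quantile normalization, with both mutant samples below both WT samples. The deposited values of these 5 genes already stood apart between groups, as did those of 83% of all genes. Myc was nearly level on those values, so the separation after subtracting it is no separate evidence. For Max, Mycn and Mxd3 the change against Myc was between -0.09 and 0.03 as deposited and between -0.165 and 0.05 with quantile normalization. These are shifts in RNA within the set and were not tested as a score.

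**Figure D3:**
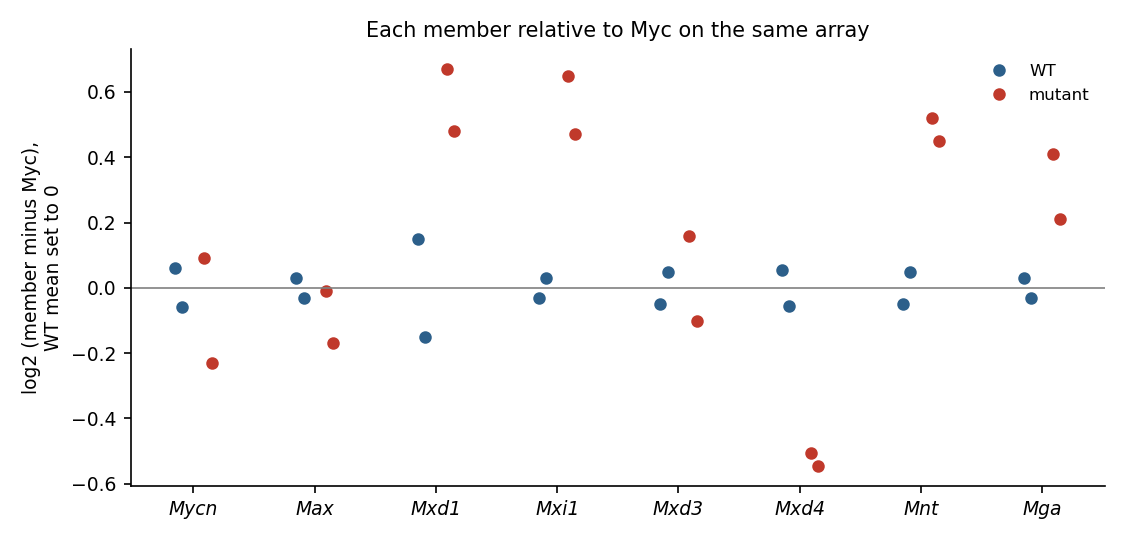
Log2 value of each member minus that of Myc on the same array (vertical axis, WT mean set to 0), with WT samples in blue and mutant samples in red, 1 point per sample. Mxd1, Mxi1, Mnt and Mga lie higher relative to Myc in both mutant samples and Mxd4 lower in both.

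Mxd1 was the called member with the largest difference, and the genes whose values over the 4 samples ran most like its own, by root mean square distance of mean-centred values, were Syt7 (0.02), Gfod2 (0.03), Aoc2 (0.03), Snord33 (0.03) and Kcnk1 (0.03), out of 13823 genes above the dim level. Each shared the wide step between WT A and WT B: Syt7 read 6.20 and 6.20 in mutant and 5.70 and 5.43 in WT. With 4 samples in 2 groups such likeness is a description only.

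The neighbouring MLX branch uses MLX in place of MAX and senses sugar phosphates. Of its genes and Mycl, 1 of 4 rose and 0 fell on both scalings. The riser was Mlxip (MondoA), at 8.05 and 8.12 in mutant and 7.30 and 7.25 in WT, a difference of 0.81 ± 0.07 (limma adjusted p = 0.000927) and 0.61 after quantile normalization. Mlxipl (0.60, or 0.23 after quantile normalization) and Mlx (0.10, or -0.08) were not called on both. Both target genes listed for this branch rose, beside 22.4% of all genes, and 2 genes are too few to read a share from. Txnip, an arrestin-like inhibitor of glucose uptake, read 10.76 and 10.85 in mutant and 8.77 and 8.73 in WT, a rise of 2.06 ± 0.07 (limma adjusted p = 0.000148) that was 2.03 after quantile normalization. Its relative Arrdc4 rose by 0.74 ± 0.10 (limma adjusted p = 0.00241), or 0.53 after quantile normalization. The Txnip promoter window printed above holds the word CACGAG in 2 copies spaced by 5 bases, a paired E-box-like element known from this gene. Searched on both strands among the 32851 promoters, the pair was found in 1, that of Txnip. The word and spacing were those known from Txnip, so its match was fixed beforehand and says nothing of the branch. The Arrdc4 promoter holds no such pair, but CACGTG 193 bases before the start. Whether Mlxip or any member acts at these genes was not measured.

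The machinery that the network recruits held calls in some genes of each list, as did all genes, of which 22.4% rose, 11.5% fell and 13181 of 19938 were not called on both scalings. Of 13 measured MYC activation cofactors, 5 rose and 1 fell, or 38.5% and 7.69%. The acetyltransferase genes Crebbp and Ep300 rose by 0.67 and 0.66, Trrap, the MYC-binding scaffold of acetyltransferase complexes, by 0.52, and Actl6a fell by 0.53. Of 10 measured SIN3 and deacetylase corepressor genes, 3 rose and 0 fell, or 30% and 0%. The rises were Sap30 by 0.91, Rbbp4 by 0.44 and Suds3 by 0.32. Sin3a (0.32) and Sin3b (0.23), which the MXD proteins bind directly, were not called on both scalings. Among 12 PRC1.6 partners of Mga, Rybp rose by 1.10 and Pcgf6, the subunit particular to that complex, by 0.77, with 10 others uncalled. The share that rose was 16.7%, below that of all genes. Of the 18 germline genes on the list, 2 rose and 1 fell, or 11.1% and 5.56%, both below the shares of all genes. All 3 lay below the dim level: Dazl stood at 0.81, Tdrd1 at 0.66 and Hormad1 at -0.87. Only 2 of the 18 lay above that level, so most of these values lie near background. CACGTG stood in promoters of 58.8% of the 17 germline genes with an entry, beside 9.52% of all measured genes with an entry. The genes were listed as known to be silenced by PRC1.6, the complex of Mga, so this share is a description only. After quantile normalization the medians of the cofactor, corepressor, PRC1.6 partner and germline lists were -0.03, 0.19, -0.04 and 0.01, and on the deposited values, where that of all genes was 0.26, they were 0.125, 0.28, 0.13 and 0.36.

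All 7 partners that bind MYC or share its promoters were called, 6 higher and 1 lower. These shares are 85.7% and 14.3%, beside 22.4% and 11.5% of all genes. The list is short and was chosen with earlier results of these data known, so the shares are a description only. Tfap4, itself a helix-loop-helix factor, rose by 0.80, Sp1 by 0.57, Zbtb17 (Miz1), through which MYC represses genes, by 0.56, and Yy1 by 0.42. The 1 that fell was Pfdn5 (-0.36), a prefoldin subunit that binds MYC, named here after its value was seen. Of 12 measured genes of MYC protein turnover, 2 rose, Ppp2r5a by 0.33 and the ubiquitin ligase gene Huwe1 by 0.21, and 0 fell. No rise in this list was called with the replicate block or with any 1 array left out. Fbxw7, which marks MYC for destruction, stood at 0.04 and was not called. The median of the partner list was 0.34 after quantile normalization and that of the turnover list 0.04.

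Among genes known to be switched on by MYC, those of metabolism held more falls than rises on both scalings. Of 21 measured targets in metabolism and growth, 10 fell and 0 rose, or 47.6% and 0% against 11.5% and 22.4% of all genes. On the deposited values alone 5 of them were called higher and 10 lower. The 10 falls became 6 without mutant A, 3 without mutant B and 0 without WT A or WT B. Tfrc, the transferrin receptor, fell by 1.34 ± 0.09, Nme1 by 0.96 ± 0.07, the folate enzyme gene Mthfd2 fell by 0.82 and Ldha stood at -0.83. Odc1 (0.01), Srm (-0.06) and Cad (0.07), textbook targets for polyamine and nucleotide synthesis, were not called. Their median stood at -0.16 as deposited and at -0.29 with quantile normalization, beside 0.26 and -0.0037 for all genes. Of 32 measured nucleolar targets, 8 fell and 4 rose, or 25% and 12.5%, but 9 were called higher and 9 lower on the deposited values, against 4 and 14 after quantile normalization. Nop56 and Bop1, of ribosome assembly, fell by 0.70 and 0.49, while Mrto4 and Tcof1 rose by 0.63 and 0.46, and Ncl (0.02) and Npm1 (-0.28) were not called on both scalings. Their median was -0.02, or -0.16 after quantile normalization. Of 10 cell cycle targets, Tert (1.28) and Mcm4 (0.48) rose and Ccne1 (-0.47) and Mcm5 (-0.38) fell.

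**Figure D4:**
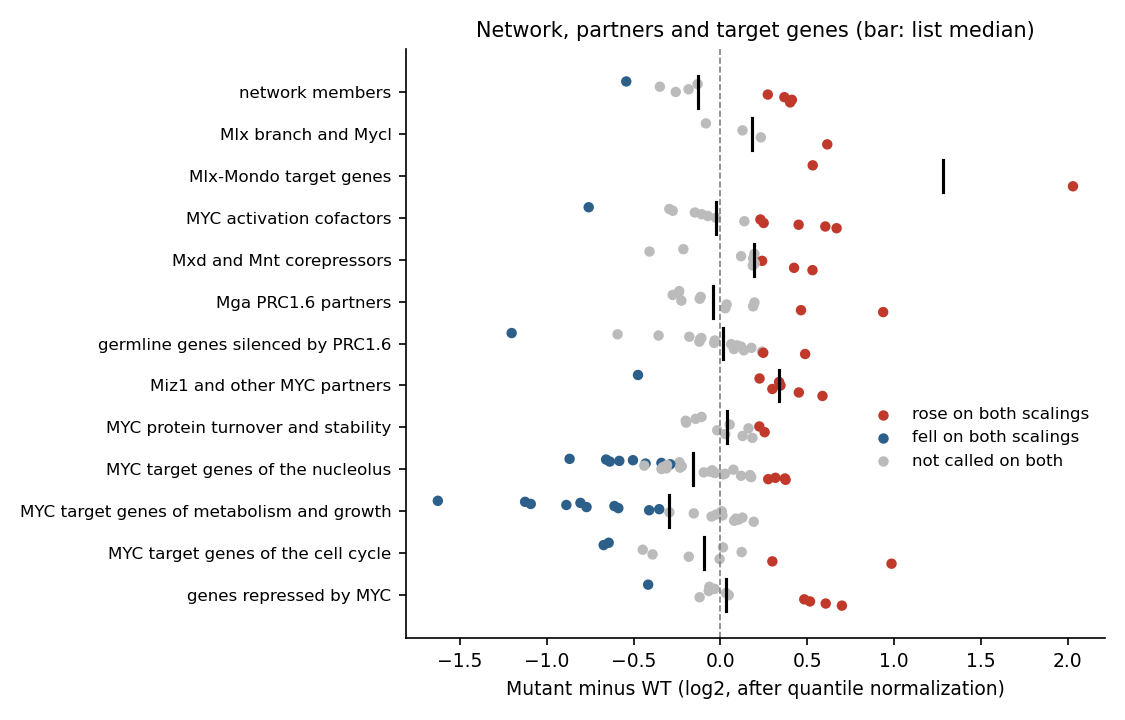
Mutant minus WT in log2 units after quantile normalization (horizontal axis) for every measured gene of the network and of the partner and target lists, coloured by whether the gene rose (red), fell (blue) or was not called (grey) on both scalings. Black bars are list medians and the dashed line is the median of all genes; the metabolism and growth targets have 10 falls and 0 rises.

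Of 11 measured genes that MYC is known to repress, 4 rose and 1 fell, or 36.4% and 9.09%. Of all genes 22.4% rose and 11.5% fell. The CDK inhibitor genes Cdkn1b, Cdkn1c and Cdkn2b rose by 0.70, 0.68 and 0.61, Ndrg2 by 0.88, and Klf4 fell by 0.34, with a list median of 0.03 after quantile normalization. In bulk cultures, a change in RNA per cell and a change in the share of cells cannot be told apart. Of 11 proliferation markers, 4 fell and 1 rose, or 36.4% and 9.09%. After quantile normalization 7 were called lower and 1 higher, beside 24.4% and 22.5% of all genes. Their median was then -0.47, beside -0.0037 for all genes. Rrm2 and Pcna fell by 1.12 and 0.63 and Mcm2 rose by 0.61. Mki67 (-0.24) and Top2a (-0.13) were not called on both scalings, but were called lower after quantile normalization (-0.47 and -0.36). Summed on the linear scale, the proliferation markers came to 1880 to 1950 in mutant and 2030 to 2250 in WT, and the part of this in the values above was not tested.

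The cultures carried the RNA of fibroblasts. All 9 fibroblast markers lay above the dim level, with a sum of 30100 to 30600 in mutant and 35000 to 35200 in WT. Of the 5 smooth muscle and myofibroblast markers 4 fell, or 80%, beside 11.5% of all genes (sums of 1770 to 2050 and 5620 to 5950), Acta2 (-1.67) among them. Of the epithelial, endothelial, immune and mesothelial markers 3 of 8, 3 of 7, 4 of 7 and 3 of 4 lay above the dim level. Epcam (4.67 to 4.82), Cdh5 (4.78 to 4.91) and Ptprc (4.04 to 4.29) lay below it in every sample. Krt8 (6.13 to 6.78), Vwf (5.86 to 6.19), Cd68 (5.73 to 6.74) and Msln (6.37 to 6.98) of the same lists lay above it in every sample. The sums of these lists ran from 363 to 386 in mutant and 274 to 275 in WT for epithelial markers, 298 to 308 and 235 to 256 for endothelial, 285 to 288 and 267 to 277 for immune, and 235 to 246 and 220 to 236 for mesothelial markers. All sums are of deposited values, on which the mutant columns lie higher. After quantile normalization the median differences of these lists, in the same order, were 0.06, -0.10, -0.07 and -0.05. The immune sum holds calls in both directions, as Lyz2 fell by 1.48 and Csf1r by 0.43 while Adgre1 rose by 0.63, and of the epithelial markers Sftpc rose by 0.92. Adgre1 (3.49 to 4.24) lay below the dim level in every sample. Sftpc lay below it in WT (4.39 and 4.30) and just above it in mutant (5.30 and 5.23), so both lie near background. The part of other cells or of fewer myofibroblasts in the network's differences was not tested.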

How the data were processed

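RNA of 4 samples, 2 per group, was measured on Affymetrix mouse gene arrays. The values deposited by the authors are log2 expression values, read as such from their range of 2.28 to 14.95; per the submitters' processing notes, they were made with the Transcriptome Analysis Console, whose version, normalization and build are not given in the sources consulted. Of 28944 rows, 21789 carry exactly 1 symbol; the row with the highest mean stood for each of 19938 genes, and symbols were updated through GRCm38.p6 (21698 rows matched). Genes were fitted with limma 3.58.1 in R 4.3.3 (lmFit, eBayes, two-sided, Benjamini-Hochberg over all genes, threshold 0.05), tested on simulated data, on deposited and on quantile-normalized columns. Intervals are at 95%. Tables and plots used pandas 2.3.3 and matplotlib 3.10.9. The number of arrays limits the precision.

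Alternatives were 3 other scalings, the replicate letter as a block, a dim-gene filter, trended and robust eBayes, the mean of a gene's rows and each array left out. Named genes are the members, up to 4 called genes per list with the largest differences (the 2 largest where under 2 were called), and the 5 genes most like the called member with the largest difference; other list genes given were named after their values were seen. The members and lists were chosen with earlier results of these data known. Rows with several symbols are not analysed here. The identity of the altered gene in the mutant line is not reported here.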

Additional observations from a re-analysis of the deposited data

How the results depend on the processing

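The 5 called members kept their direction under all alternatives run. Their direction and calls after quantile normalization follow from the rule that named them and are no check. The block, dim-gene filter, eBayes and row-mean settings leave the difference itself unchanged, as each member has 1 row. As the groups of these 5 members do not overlap, leaving out 1 array cannot turn the sign either. Only cyclic loess and median centring could have turned it. Calls of the 5 members were also kept under cyclic loess normalization, the dim-gene filter, trended and robust eBayes, the mean of a gene's rows and the replicate block. With the replicate block 4447 genes rose and 1869 fell, against 4459 and 2298 without it; the letters share only a name, and A minus B in mutant and in WT correlated across genes at 0.013. Median centring ended the calls of Mxd1 (0.29), Mnt (0.20) and Mga (0.03) and called Max lower (-0.37). Myc turned to -0.18, -0.28 and -0.20 under quantile normalization, median centring and cyclic loess, and was called lower under median centring only. On the same scalings Mxd3 turned to -0.26, -0.25 and -0.27 and Mycn stood at -0.35, -0.35 and -0.35, both called lower each time. The cause was not tested.

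With each array left out in turn, differences ran from 0.48 to 0.80 for Mxd1, 0.60 to 0.65 for Mxi1, -0.52 to -0.40 for Mxd4, 0.51 to 0.59 for Mnt, 0.34 to 0.41 for Mga, -0.005 to 0.14 for Myc, -0.10 to 0.085 for Mycn, -0.06 to 0.01 for Max and 0.03 to 0.15 for Mxd3. The lone sample of a group is then assumed to vary like the others. Calls on both scalings were lost for all 5 members, except that of Mxi1 without mutant B. Genes that rose numbered 0 to 1762 and genes that fell 0 to 1086. Without WT A or WT B limma called 0 genes on the deposited values, while 9846 and 10022 genes had unadjusted p-values under 0.05, and 2939 and 3326 were called after quantile normalization. List counts moved as well: the 2 rises of MYC protein turnover became 0 with the replicate block, 1 with robust eBayes and 1 with the mean of a gene's rows, the 8 nucleolar falls became 5 with the block, and the corepressors' 3 rises and 0 falls became 7 and 2 with trended eBayes. Without WT A or WT B each list count was 0.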
